A study of Mus musculus with 30 samples.

Results

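Extensor digitorum longus (EDL) muscle, a fast hind limb muscle, was compared between EAE-induced and unimmunized mice on day 14. Experimental autoimmune encephalomyelitis (EAE) is an immune attack on the myelin of the brain and spinal cord, used as a model of multiple sclerosis. The EAE-induced group was made of 5 female wild-type SJL/J mice immunized with a myelin proteolipid protein peptide, PLP139-151, in complete Freund's adjuvant (CFA), without pertussis toxin. The comparison group (Ctrl) was made of 5 female wild-type SJL/J mice that were not immunized, so peptide and adjuvant differ together between the groups. The study places day 14 at the peak of disease, when hind limb disability was mild. Each mouse gave 1 sample of whole muscle, which holds fibres, tendon ends, vessels, nerve and resident cells, and fewer cells of a type and less RNA per cell cannot be told apart in such samples. The series holds 30 mice, with OVA-immunized mice (ovalbumin in CFA) and a second set of 15 mice on day 40, which are used here beside single results only.

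The genes described are all those with a mean above 3 RPKM in either group, where RPKM is the number of reads scaled to the exon length in kilobases and to the size of the library. This rule took 8771 of the 21073 genes of the table (41.6%), and 12302 genes were left out. The members held 98.8% to 99.2% of all RPKM of a mouse. The member just inside the limit had a group mean of 3.004 RPKM and the gene just outside it a mean of 3.000 RPKM. Whether these were muscle libraries was checked on defining genes: fast-fibre genes were at the top of the range, with parvalbumin (Pvalb) at 14935 ± 4779.8 RPKM and fast troponin C (Tnnc2) at 16635 ± 5436 RPKM in unimmunized mice (mean ± SD, n = 5 mice, as in all values below unless a value per mouse is given).

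A motor axon keeps the muscle fibre beneath it in order by its impulses and by factors it releases. When this contact is weakened or lost, a fibre is known to return to a partly embryonic programme: acetylcholine receptors spread beyond the endplate, myogenin rises, and ubiquitin ligases mark contractile proteins for the proteasome. Muscle is also known to answer to glucocorticoids, cytokines, reduced feeding and reduced load, each of which draws on some of the same genes. Interferons, by contrast, drive a set of antiviral GTPases, transcription factors and antigen-presenting molecules in nearly every cell type, while the collagens and other matrix proteins of muscle come mostly from fibroblasts and tendon cells.

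Of the 8771 genes tested, 2318 were called, that is 26.4%, at a Benjamini-Hochberg adjusted p of limma below 0.05 and a fold change above 1.5. In the EAE-induced mice 1282 genes were higher (14.6%) and 1036 lower (11.8%), and 6453 were not called, of which 2537 had an unadjusted p below 0.05. The median log2 fold change was 0.85 among the higher genes and -0.90 among the lower genes. Changes above 2-fold were found in 435 higher and 416 lower genes, above 4-fold in 71 and 53, above 8-fold in 26 and 5, and above 16-fold in 14 and 0. Among the higher genes 271 stood at 3 RPKM or less in unimmunized mice, and among the lower genes 283 stood at 3 RPKM or less in EAE-induced mice. Such genes entered the test only through the group where they were high, so a change was needed for them to be counted. List counts below stand beside the shares of all tested genes, 14.6% higher and 11.8% lower. Fold changes were computed on log2(RPKM + 0.1), which understates the change of genes near 0. All 5 EAE-induced mice lay above all 5 unimmunized mice in 21.2% of the tested genes and below them in 11%. The median of all tested genes was shifted by 0.11 on the log2 scale. Scaling by the median of ratios between libraries brought this shift to 0.01 and turned the split from 55.3% to 42.6% of calls higher, with 948 genes higher and 1277 lower and no gene called in the opposite direction.

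**Figure D1:**
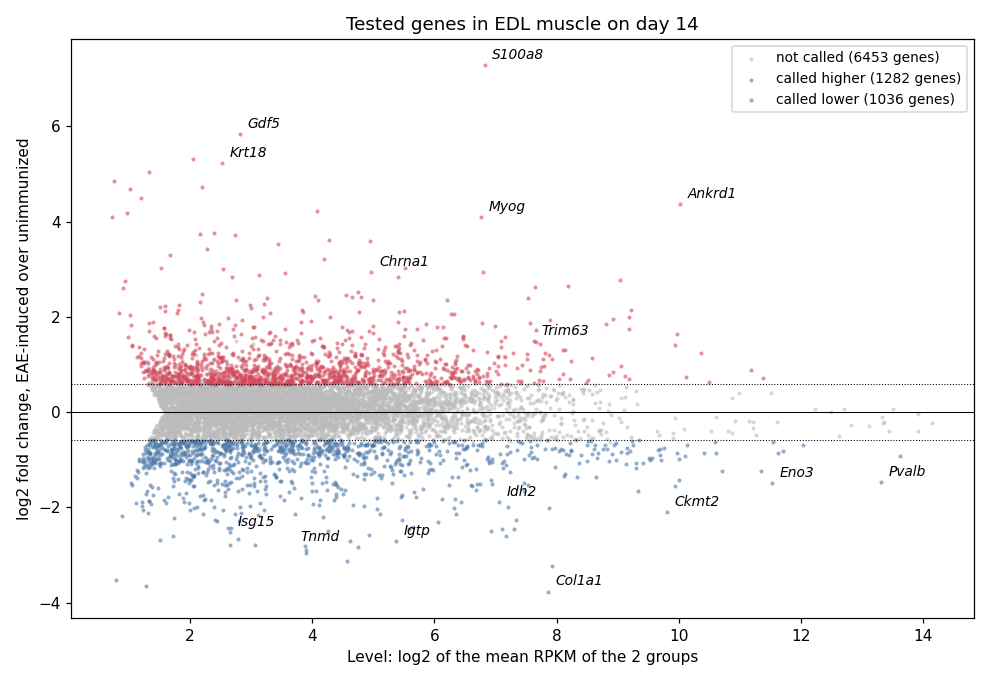
Log2 fold change of each tested gene (vertical axis, EAE-induced over unimmunized mice) against its level (horizontal axis, log2 of the mean RPKM of both groups). Red points are the 1282 genes called higher, blue points the 1036 called lower and grey points the 6453 not called; dotted lines mark the 1.5-fold limit. Genes above 16-fold were higher genes, with S100a8 farthest at 7.28.

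The EAE-induced mice differed among themselves in the size of these changes. Over the 1282 higher genes, the median deviation from the mean of the unimmunized mice was 0.93, 1.09, 0.67, 0.77 and 0.91 on the log2 scale in EAE mice 1 to 5. Over the 1036 lower genes it was -0.85, -1.26, -0.62, -0.86 and -1.04. EAE mouse 2 was farthest from the unimmunized mean in 59.8% of the genes called higher and in 67.5% of those called lower, and EAE mouse 3 was nearest in 51.2% and 59.2%. The spread within the groups was alike, with a median SD of 0.21 (EAE) and 0.23 (Ctrl) on the log2 scale. By estimate, 18200000 to 23300000 reads per mouse fell on genes in the unimmunized group and 18300000 to 31600000 in the EAE-induced group, of which mouse 3 was the deepest. The 10 most abundant genes took 16.6% to 19.5% of the reads in unimmunized and 13.1% to 16.4% in EAE-induced mice. Fold changes also moved with exon length, from a median of -0.10 in the shortest 25% of the genes to 0.30 in the longest 25%, and this is given below where a correction for it changes a count. Among the unimmunized mice, mouse 4 stood apart in the interferon genes, and those genes are given with and without it. Unimmunized mouse 1 lay farthest from its group in many other genes, and without it 999 genes were called higher and 982 lower.

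Acetylcholine receptor and endplate genes changed in both directions, with subunits of the receptor among those called higher. The 15 tested members of this list (of 21 listed) held 7 called higher and 3 called lower, with a median log2 fold change of 0.41 beside 0.11 for all genes. With median-of-ratios scaling or quantile normalization 7 were called higher and 5 lower. Chrnd, Chrng, Musk and Ncam1 passed the limit on level through the EAE-induced mice alone, so a rise was needed for them to be counted, and the 11 members above 3 RPKM in unimmunized mice held 3 called higher and 3 lower, with a median of -0.02. Chrna1, the α subunit that binds acetylcholine, was at 6.84, 6.36, 6.49, 7.49 and 6.34 RPKM in the 5 unimmunized mice and at 84.7, 69.2, 25.8, 48.6 and 50.7 RPKM in the 5 EAE-induced mice (log2 fold change 2.93, SE 0.22, adjusted p = 4.83e-07). The unimmunized mice lay close together and the lowest EAE-induced mouse, mouse 3, was still well above all of them. Chrng, the γ subunit of the embryonic receptor, was at 1.24, 0.891, 0.847, 1.74 and 0.742 RPKM in unimmunized and at 11.5, 16.4, 5.50, 3.88 and 15.6 RPKM in EAE-induced mice (log2 fold change 3.01, SE 0.36, adjusted p = 1.55e-05). EAE mice 3 and 4 were the lowest of their group here, and the groups did not overlap.

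Chrnd, the δ subunit, rose from 2.66 ± 0.508 to 13.4 ± 5.85 RPKM and Chrnb1, the β subunit, from 31.4 ± 2.39 to 109 ± 19.2 RPKM, with log2 fold changes of 2.18 (SE 0.30) and 1.78 (SE 0.12). Chrne, the ε subunit that takes the place of γ in the adult receptor, was not called because its change stayed under 1.5-fold, with 12.2 ± 2.22 RPKM in unimmunized and 8.61 ± 1.46 RPKM in EAE-induced mice (log2 fold change -0.50, SE 0.14, adjusted p = 0.00809). Chrna9, a subunit known from the inner ear and other tissues and not a member of the list, was at 0.0366 ± 0.0337 RPKM in unimmunized and at 5.01 ± 3.35 RPKM in EAE-induced mice.

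Musk, the receptor kinase that gathers acetylcholine receptors under the nerve terminal, was at 0.315, 0.677, 0.432, 0.782 and 1.33 RPKM in unimmunized and at 6.30, 19.4, 5.15, 5.10 and 9.16 RPKM in EAE-induced mice (log2 fold change 3.43, SE 0.43, adjusted p = 2.08e-05). All EAE-induced mice were above all unimmunized mice, with mouse 2 far above the rest. Dok7, the adaptor that activates this kinase, rose less (from 5.34 ± 1.43 to 9.80 ± 1.18 RPKM, log2 fold change 0.90, SE 0.20), and Ncam1, an adhesion molecule that spreads over fibres without nerve contact, rose from 1.28 ± 0.268 to 7.91 ± 2.73 RPKM (log2 fold change 2.49, SE 0.22). The enzyme that clears the transmitter moved the other way: Ache, acetylcholinesterase, fell from 30.8 ± 6.69 to 11.1 ± 4.35 RPKM (log2 fold change -1.53, SE 0.23), and Colq, its collagen tail, fell from 6.98 ± 1.12 to 3.41 ± 1.85 RPKM (log2 fold change -1.12, SE 0.22), in the latter with overlapping groups. Rapsn, which anchors the receptor, and Utrn, a dystrophin relative of the endplate, did not pass the test at log2 fold changes of 0.27 and 0.41.

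The 250 bases before the start of Chrna1 and of Chrng are shown because both promoters carry the E-box form CAGCTG, a site type that MyoD family proteins are known to bind. The letters were searched on both strands, which are the same for this palindrome, in the 250 bases before each annotated start. The windows are from RefSeq on GRCm38.p6, the same assembly as mm10, are written 5′ to 3′ on the gene's strand, and have CAGCTG in capitals.
Chrna1 (chr2:73580339-73580588, minus strand): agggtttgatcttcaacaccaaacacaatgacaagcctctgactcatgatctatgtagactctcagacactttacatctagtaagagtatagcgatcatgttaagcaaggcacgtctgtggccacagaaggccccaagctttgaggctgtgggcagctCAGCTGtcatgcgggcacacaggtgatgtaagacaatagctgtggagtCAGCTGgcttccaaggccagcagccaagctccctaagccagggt
Chrng (chr1:87205561-87205810, plus strand): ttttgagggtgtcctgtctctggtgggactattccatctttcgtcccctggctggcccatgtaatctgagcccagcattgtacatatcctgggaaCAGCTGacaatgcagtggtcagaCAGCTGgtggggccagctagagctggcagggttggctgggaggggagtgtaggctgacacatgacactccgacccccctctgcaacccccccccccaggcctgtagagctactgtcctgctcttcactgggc
In Chrna1 the motif began 92 and 44 bases before the start, and in Chrng 155 and 132 bases before it. Of the 11 genes of the list with a promoter window, 5 held CAGCTG (Chrna1, Chrne, Chrng, Etv5 and Musk), of which Chrne and Etv5 were not called. CAGCTG stood in 13% of all 32851 windows. By gene, counting any window of the gene, it was held by 14.7% of all genes with a window. The share was 14.3% of tested genes, 15.8% of genes called higher and 16.8% of genes called lower. None of the 11 denervation signalling genes with a window held it, and other muscle lists had shares like that of the receptor list, such as 46.7% in sarcoplasmic reticulum calcium handling and 50% in the fast-fibre markers, beside 45.5% here.

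Most tested genes known to answer to the loss of nerve activity were called higher. Of 12 tested members, 10 were called higher and 1 lower, with a median log2 fold change of 2.73. Runx1, Hdac4, Eda2r and Ampd3 passed the limit on level through the EAE-induced mice alone, and the 8 members above 3 RPKM in unimmunized mice held 6 called higher and 1 lower, with a median of 2.34. Myog, myogenin, a transcription factor of muscle formation that denervated fibres express again, was at 10.5, 9.07, 11.3, 11.4 and 8.41 RPKM in unimmunized and at 273, 369, 112, 65.9 and 216 RPKM in EAE-induced mice (log2 fold change 4.10, SE 0.36, adjusted p = 1.28e-06). The unimmunized mice lay within a narrow range, and EAE mouse 4, the lowest of its group, was well above it. Runx1, a transcription factor that preserves denervated fibres, rose from 1.32 ± 0.275 to 11.5 ± 6.47 RPKM, and Hdac4, the deacetylase that represses activity-dependent genes upstream of myogenin, rose from 2.95 ± 0.879 to 15.6 ± 8.05 RPKM. Gadd45a, a stress protein that acts on the nuclei of denervated fibres, rose from 47.0 ± 5.15 to 353 ± 205 RPKM (log2 fold change 2.62, SE 0.38).

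The largest change of this list was in Eda2r, the receptor of ectodysplasin A2, at 0.674, 1.13, 2.03, 2.03 and 2.33 RPKM in unimmunized and 33.8, 47.9, 15.2, 23.5 and 39.6 RPKM in EAE-induced mice (log2 fold change 4.22, SE 0.34, adjusted p = 7.53e-07). The groups did not overlap. Cdkn1a, the cell cycle inhibitor p21, rose from 24.4 ± 6.04 to 198 ± 80.2 RPKM, and Tnfrsf12a, the receptor of the cytokine TWEAK, rose from 29.9 ± 11.7 to 129.8 ± 55.5 RPKM. Ampd3, an AMP deaminase that is low in healthy muscle, rose from 2.53 ± 0.994 to 20.9 ± 12.0 RPKM, and Hspb8, a small heat shock protein of chaperone-assisted autophagy, rose from 220.0 ± 29.9 to 941 ± 399 RPKM. Cpne2, a calcium-dependent phospholipid-binding protein, rose from 4.35 ± 0.538 to 57.0 ± 19.8 RPKM. Nnmt, nicotinamide N-methyltransferase, fell from 3.31 ± 0.531 to 1.68 ± 0.639 RPKM, and Hdac5, a relative of Hdac4, did not pass the test (log2 fold change 0.14).

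**Figure D2:**
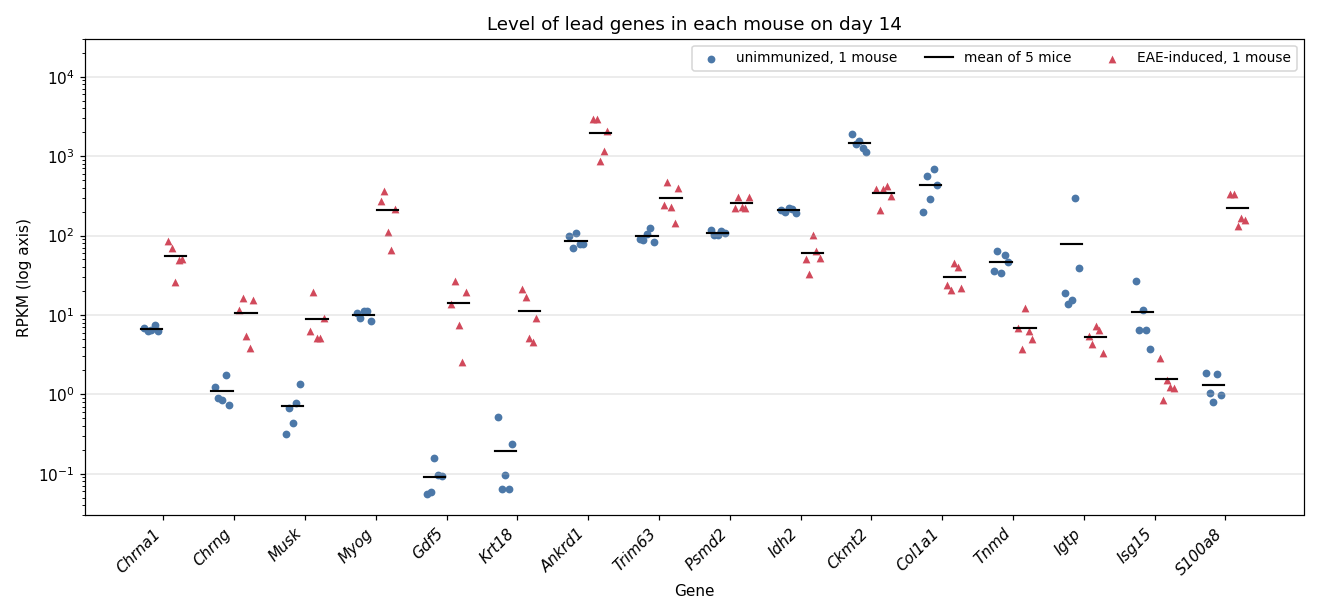
RPKM of 16 genes in each mouse (vertical log axis) for unimmunized mice (blue circles) and EAE-induced mice (red triangles), with black bars at the mean of 5 mice. The groups do not overlap in any of the genes shown. On this log axis Igtp spreads most among unimmunized mice, from 13.7 to 300.8 RPKM.

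Ion channels of the fibre surface changed in both directions, with 4 of 21 tested members called higher and 4 lower, and a median log2 fold change of 0.10 that median-of-ratios scaling brought to about 0. The 17 members above 3 RPKM in unimmunized mice held 1 called higher and 4 lower, and the others passed the limit on level through the EAE-induced mice alone. Scn4a, the adult sodium channel, did not pass the test, with 65.1 ± 14.9 RPKM in unimmunized and 85.2 ± 19.1 RPKM in EAE-induced mice (log2 fold change 0.38, SE 0.23, adjusted p = 0.179). Scn4b, a β subunit that modifies it, fell from 155 ± 10.5 to 58.5 ± 27.1 RPKM (log2 fold change -1.52, SE 0.22).

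Among potassium channels, Kcnn3, the calcium-activated SK3 channel that appears in denervated fibres, rose from 0.486 ± 0.238 to 5.90 ± 3.16 RPKM (log2 fold change 3.30, SE 0.44), and Kcna7, a voltage-gated channel of fast fibres, fell from 83.2 ± 4.38 to 29.3 ± 12.4 RPKM (log2 fold change -1.61, SE 0.22). Kcna5 rose from 2.14 ± 0.545 to 3.53 ± 0.174 RPKM (log2 fold change 0.73, SE 0.15), without a call at a pseudocount of 1. The chloride channel Clcn1, which sets the resting stability of the membrane, was not called, at 34.0 ± 12.0 RPKM in unimmunized and 29.8 ± 9.03 RPKM in EAE-induced mice (log2 fold change -0.16). Calls of 2 further members depended on single mice. Abcc9, the potassium channel regulator SUR2, was called higher except under quantile normalization and without Ctrl mouse 1 (log2 fold change 0.64) or EAE mouse 2 (0.71). Kcnj2 was called lower except without EAE mouse 1 (-0.58) or EAE mouse 2 (-0.58).

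Factors of myogenesis and satellite cells were called higher in 7 of 13 tested members (of 20 listed) and lower in 0 (median log2 fold change 0.65). Pax7, Pax3, Myf5, Calcr and Msc were among those too low to be tested. Pax7 was at 0.324 ± 0.132 RPKM in unimmunized and 0.422 ± 0.130 RPKM in EAE-induced mice. Myf5 was at 0.740 ± 0.273 and 1.35 ± 0.296 RPKM, and Msc at 1.49 ± 0.0871 and 0.473 ± 0.198 RPKM, in the same order. Myod1, the founding member of the MyoD family, was at 15.2, 12.8, 15.2, 21.1 and 18.9 RPKM in unimmunized and at 84.3, 95.9, 57.0, 24.3 and 78.2 RPKM in EAE-induced mice (log2 fold change 1.90, SE 0.28, adjusted p = 7.70e-05). Myf6, the family member most abundant in adult fibres, rose from 89.5 ± 12.3 to 315 ± 124 RPKM (log2 fold change 1.72, SE 0.24). The groups did not overlap in either gene. Mef2a and Mef2c, MADS-box partners of these factors, rose from 9.13 ± 5.40 to 29.9 ± 10.7 RPKM and from 82.6 ± 6.74 to 169.6 ± 19.0 RPKM. Cdh15, M-cadherin of satellite cells and young fibres, rose from 8.88 ± 0.845 to 17.7 ± 3.88 RPKM, whereas Vcam1, also an adhesion molecule of satellite cells, was not called (log2 fold change -0.37). The cell cycle list held 10 tested members of 25, with 0 called higher and 2 lower, beside 11.8% lower of all tested genes. These 2, Ccnd1 and Ccnd2 (cyclins D1 and D2), passed the limit on level through the unimmunized mice alone. Ccnd1 fell from 5.97 ± 1.41 to 2.28 ± 0.594 RPKM. Ccnd2 fell from 4.48 ± 0.885 to 2.67 ± 0.516 RPKM, without a call at a pseudocount of 1. The 8 members above 3 RPKM in EAE-induced mice held 0 called higher and 0 lower.

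Of the growth signals, the most changed gene was Gdf5, a BMP ligand known to limit atrophy of denervated muscle. It was at 0.0553, 0.0584, 0.156, 0.0965 and 0.0947 RPKM in unimmunized and at 13.9, 26.4, 7.53, 2.58 and 19.7 RPKM in EAE-induced mice (log2 fold change 5.84, SE 0.50, adjusted p = 1.16e-06). In unimmunized mice these values come from few reads, and EAE mouse 4 was the lowest of its group. The receptors Bmpr1a and Bmpr2 rose from 12.3 ± 3.11 to 20.8 ± 1.79 RPKM and from 2.23 ± 1.26 to 6.19 ± 2.16 RPKM, in Bmpr2 with overlapping groups. The SMAD1/5 targets Id1, Id3 and Smad6 did not pass the test, at log2 fold changes of 0.64, 0.25 and -0.15. Of 13 tested members of the list 3 were called, all higher. Of these, Gdf5 and Bmpr2 passed the limit on level through the EAE-induced mice alone. The 10 members above 3 RPKM in unimmunized mice held 1 called higher and 0 lower. Id1 stood at 23.5, 21.4, 28.6, 51.6 and 32.9 RPKM in unimmunized and 96.5, 47.7, 45.3, 36.8 and 29.4 RPKM in EAE-induced mice, and these ranges overlapped.

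The myostatin and activin list held 6 called higher and 3 lower of 16. Mstn, myostatin, a brake on muscle mass, rose from 4.79 ± 2.13 to 11.1 ± 1.32 RPKM (log2 fold change 1.39, SE 0.37), as did its antagonist Fst, follistatin (from 4.75 ± 0.716 to 10.3 ± 3.02 RPKM, log2 fold change 1.07, SE 0.18). The activin receptor Acvr2a rose from 4.00 ± 1.48 to 8.81 ± 1.05 RPKM while Acvr2b fell from 3.43 ± 0.862 to 2.00 ± 0.401 RPKM, without a call at a pseudocount of 1. Fstl1, a secreted follistatin-like glycoprotein, fell from 58.4 ± 5.28 to 21.0 ± 4.08 RPKM (log2 fold change -1.49, SE 0.13), and Ltbp4, which stores latent TGF-β in the matrix, fell from 56.8 ± 5.61 to 23.4 ± 6.24 RPKM (log2 fold change -1.31, SE 0.18).

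The IGF and insulin list held 6 called higher and 2 lower of 20. Irs2, an insulin receptor substrate, rose from 3.27 ± 2.11 to 10.9 ± 9.34 RPKM with overlapping groups, and Mtor, the growth kinase, rose from 4.77 ± 1.34 to 13.6 ± 4.37 RPKM (log2 fold change 1.48, SE 0.25). Eif4ebp1, the translation repressor that this kinase inactivates, rose from 37.6 ± 3.43 to 67.8 ± 18.3 RPKM. Igfbp6 and Igfbp4, binding proteins that hold IGF back, fell from 145 ± 12.2 to 50.1 ± 10.2 RPKM and from 57.1 ± 4.70 to 34.4 ± 6.35 RPKM, while Igf1 itself did not pass the test (log2 fold change -0.45, SE 0.14).

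Within protein breakdown, most calls were in the proteasome. Of the 32 tested subunits, 19 were called higher and 0 lower, the median log2 fold change was 0.66, and each of them had a fold change above 0, from 0.26 to 1.47. With median-of-ratios scaling 14 were called, and with a correction for exon length 25. Psmd2, a subunit of the regulatory cap that holds ubiquitin receptors in place, was at 117, 101, 103, 115 and 107 RPKM in unimmunized and at 224, 303, 227, 221 and 303 RPKM in EAE-induced mice (log2 fold change 1.22, SE 0.11, adjusted p = 1.37e-06). Every EAE-induced mouse lay well above the narrow range of the unimmunized mice. Psmd8, also of the cap, rose from 105 ± 11.7 to 298 ± 81.7 RPKM, Psmd11 from 50.3 ± 2.75 to 116 ± 25.2 RPKM, and the cap ATPases Psmc6 and Psmc4 from 43.6 ± 10.4 to 93.4 ± 17.3 RPKM and from 74.0 ± 7.23 to 137 ± 22.9 RPKM. Of the catalytic core, Psma7 rose from 145 ± 17.1 to 281 ± 62.7 RPKM and Psma3 from 17.8 ± 2.87 to 36.3 ± 5.99 RPKM, while Psmb5, a catalytic subunit, was not called (log2 fold change 0.45).

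The catalytic subunits of the immunoproteasome moved the other way and are counted with antigen presentation. Psmb9 fell from 26.3, 9.39, 13.2, 62.4 and 21.2 RPKM in unimmunized to 6.55, 3.54, 8.54, 5.71 and 4.57 RPKM in EAE-induced mice (log2 fold change -1.92, SE 0.38, adjusted p = 8.94e-04). Psmb8 fell from 29.8 ± 21.8 to 8.15 ± 2.37 RPKM and Psmb10 from 30.6 ± 18.2 to 9.98 ± 3.14 RPKM, and Psme1, a subunit of the PA28 activator, fell from 155 ± 43.9 to 49.4 ± 12.6 RPKM. In these 4 genes all EAE-induced mice were below all unimmunized mice.

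Ubiquitin ligases and FoxO factors were called higher in 9 of 19 tested members and lower in 0. Trim63, MuRF1, the ligase that marks thick-filament proteins, was at 91.4, 86.8, 106, 125 and 82.3 RPKM in unimmunized and at 240.3, 477, 229, 145 and 395 RPKM in EAE-induced mice (log2 fold change 1.49, SE 0.26, adjusted p = 3.24e-04). The groups did not overlap, although EAE mouse 4 lay near the highest unimmunized mouse. Fbxo32, atrogin-1, was at 32.4, 29.3, 42.4, 55.6 and 41.6 RPKM in unimmunized and at 77.4, 214, 117, 52.0 and 223 RPKM in EAE-induced mice (log2 fold change 1.58, SE 0.33, adjusted p = 0.00123), and here EAE mouse 4 fell within the unimmunized range. Fbxo31 rose from 35.2 ± 2.25 to 66.1 ± 13.9 RPKM, Fbxo30, a ligase that BMP signalling restrains, from 3.25 ± 0.743 to 5.48 ± 0.822 RPKM, and Foxo1, a transcription factor that drives these ligases, from 6.06 ± 0.471 to 12.0 ± 5.49 RPKM.

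Foxo3, the FoxO factor best known for driving both ligases, was called higher (log2 fold change 1.62) but not without Ctrl mouse 1 (1.14, adjusted p = 0.0638) or EAE mouse 2 (1.44, adjusted p = 0.0639). Among autophagy and lysosome genes 5 of 28 were called higher, 3 without EAE mouse 2 and 3 with median-of-ratios scaling. The 5 called higher are near the share of all tested genes, 14.6%. Map1lc3a, an LC3 protein of the autophagosome membrane, was at 268, 189.8, 211, 160.4 and 144 RPKM in unimmunized and at 1124, 807, 444, 685 and 821 RPKM in EAE-induced mice (log2 fold change 1.96, SE 0.26, adjusted p = 3.82e-05). The lysosomal proteases Ctsl, Ctsb and Ctsd did not pass the test at 0.45, -0.48 and 0.52 on the log2 scale. Of 6 calpain genes, Capn2 was called higher (from 29.5 ± 4.56 to 47.2 ± 4.48 RPKM), but not with median-of-ratios scaling, quantile normalization or the length correction.

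Targets of the glucocorticoid receptor were called higher in 9 of 18 and lower in 1, or 0 without EAE mouse 2 or EAE mouse 5. Fkbp5 passed the limit on level through the EAE-induced mice alone. The 17 members above 3 RPKM in unimmunized mice held 8 called higher and 1 lower. Fkbp5, a chaperone of the receptor and its standard target, was at 1.76, 3.47, 5.25, 2.39 and 2.00 RPKM in unimmunized and at 13.2, 15.7, 8.07, 15.9 and 27.8 RPKM in EAE-induced mice (log2 fold change 2.40, SE 0.40, adjusted p = 2.33e-04). The groups did not overlap. Ddit4, an inhibitor of mTOR signalling, rose from 5.70 ± 0.932 to 22.5 ± 16.6 RPKM, Errfi1 from 11.8 ± 4.53 to 38.1 ± 14.7 RPKM, Sgk1, a kinase, from 23.0 ± 7.47 to 58.4 ± 12.0 RPKM, and Glul, glutamine synthetase, from 93.4 ± 15.8 to 219 ± 19.8 RPKM. Other targets did not pass the test: Klf15 had a log2 fold change of 0.35, Pdk4 of 0.39 and Zbtb16 of 0.24, and Nr3c1, the receptor itself, of -0.03. Per1, which is both a receptor target and a clock gene, rose from 6.24 ± 4.20 to 27.9 ± 9.68 RPKM (log2 fold change 2.35, SE 0.37).

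Within the clock list 6 of 14 were called higher and 0 lower. Clock passed the limit on level through the EAE-induced mice alone. The 13 members above 3 RPKM in unimmunized mice held 5 called higher and 0 lower. Rora, a nuclear receptor that activates Arntl, rose from 5.03 ± 0.933 to 15.8 ± 5.26 RPKM, Clock from 2.82 ± 0.747 to 5.84 ± 2.00 RPKM and the repressor Cry2 from 9.02 ± 1.60 to 16.7 ± 3.03 RPKM. Arntl, Dbp and Nr1d1, genes with strong daily cycles, did not pass the test at 0.49, 0.08 and -0.43. The times at which the muscles were taken are not given in the sources used here.

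Immediate early genes were called higher in 13 of 19. Atf3, a stress-induced transcription factor, rose from 6.48 ± 2.78 to 40.6 ± 29.4 RPKM, Btg2, an antiproliferative factor, from 15.4 ± 4.19 to 70.7 ± 37.9 RPKM, Jun from 44.0 ± 12.5 to 133 ± 38.8 RPKM and Fos from 11.0 ± 4.40 to 31.3 ± 18.3 RPKM. Jun was at 31.2, 33.1, 44.2, 61.7 and 49.6 RPKM in unimmunized and at 135, 180.5, 90.4, 99.2 and 161 RPKM in EAE-induced mice, without overlap. Myc rose from 3.93 ± 1.23 to 9.14 ± 3.04 RPKM with overlapping groups, and Ier2 and Ier3 were not called (log2 fold changes 0.13 and 0.04).

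Of the cytokine lists, that of interleukin 6 and the acute phase held 4 called higher and 1 lower of 14. Lcn2, lipocalin 2 of the acute phase, rose from 1.00 ± 0.628 to 12.4 ± 3.52 RPKM (log2 fold change 3.72, SE 0.40). It passed the limit on level through the EAE-induced mice alone. Il6st, the signalling receptor gp130, rose from 25.1 ± 7.98 to 50.0 ± 12.0 RPKM. Over this list the median log2 difference from unimmunized mice was 0.44 in EAE-induced and 0.35 in OVA-immunized mice. Against OVA-immunized mice the median was 0.01, with 1 called higher and 3 lower of 14. Stat3 and its feedback inhibitor Socs3 did not pass the test, with log2 fold changes of 0.02 and -0.26. Among NF-κB genes 3 of 13 were called higher (Nfkb2, Nfkbib and Relb) and 2 lower (Tnfaip2 and Sod2), and Nfkbia, the inhibitor that NF-κB itself induces, was at 26.2 ± 4.92 RPKM in unimmunized and 23.4 ± 2.41 RPKM in EAE-induced mice. In the ATF4 list 2 were called higher and 4 lower of 14, and without EAE mouse 4 there were 4 higher. The 2 higher members passed the limit on level through the EAE-induced mice alone. The 12 members above 3 RPKM in unimmunized mice held 0 called higher and 4 lower. Slc7a5, a leucine transporter, rose from 2.00 ± 0.275 to 11.5 ± 5.39 RPKM, while Nupr1 fell from 18.0 ± 3.00 to 5.16 ± 1.85 RPKM and Ddit3, the transcription factor CHOP, from 29.6 ± 3.32 to 17.2 ± 4.30 RPKM.

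Chaperones, among them some small heat shock proteins of the Z-disc, were called higher in 11 of 24 tested members and lower in 1, with 7 called higher under median-of-ratios scaling and 7 without EAE mouse 1. Hspb7 was at 194, 168, 263, 144 and 180.1 RPKM in unimmunized and at 926, 830.1, 368, 647 and 738 RPKM in EAE-induced mice (log2 fold change 1.85, SE 0.22, adjusted p = 1.60e-05). Hspa1b and Hspa1a, the near-identical inducible HSP70 genes, followed, rising from 2.77 ± 0.971 to 10.3 ± 7.53 RPKM and from 2.34 ± 0.641 to 8.16 ± 5.65 RPKM, and reads shared between such copies make their single values uncertain. Both passed the limit on level through the EAE-induced mice alone. The 22 members of the list above 3 RPKM in unimmunized mice held 9 called higher and 1 lower. Cryab, αB-crystallin, rose from 772 ± 177 to 1865 ± 621 RPKM, Hspb1 from 111 ± 28.7 to 314 ± 138 RPKM and Hsp90ab1 from 835 ± 122 to 1398 ± 179 RPKM. Of the other small heat shock proteins, Hspb6 was called lower at a log2 fold change of -0.59 with overlapping groups, and was not called under quantile normalization, with the length correction or without Ctrl mouse 1 (-0.51), Ctrl mouse 3 (-0.54), EAE mouse 2 (-0.50) or EAE mouse 5 (-0.55). Hspb2 was not called (log2 fold change -0.11). Hspa5, the chaperone of the endoplasmic reticulum, did not pass the test (log2 fold change 0.35). Of the NRF2 list, 8 of 22 were called higher. Nfe2l2, NRF2 itself, rose from 18.8 ± 4.83 to 40.9 ± 11.5 RPKM, its target Srxn1, sulfiredoxin, from 10.4 ± 1.47 to 38.2 ± 23.4 RPKM, and Cat, catalase, from 25.6 ± 9.09 to 59.0 ± 16.1 RPKM, while Nqo1, also a target, was not called (log2 fold change 0.28). The metallothionein and zinc transporter list held 2 called higher and 0 lower of 9, or 1 to 4 higher with 1 mouse left out. Slc39a14, a zinc importer, rose from 2.68 ± 0.286 to 10.3 ± 5.77 RPKM and passed the limit on level through the EAE-induced mice alone. The polyamine list held 2 called higher and 1 lower of 10, with a median log2 fold change of -0.14. Odc1, the first enzyme of polyamine synthesis, rose from 16.7 ± 2.41 to 51.3 ± 18.8 RPKM. Amd1, also of this list, was called lower (log2 fold change -0.76).

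**Figure D3:**
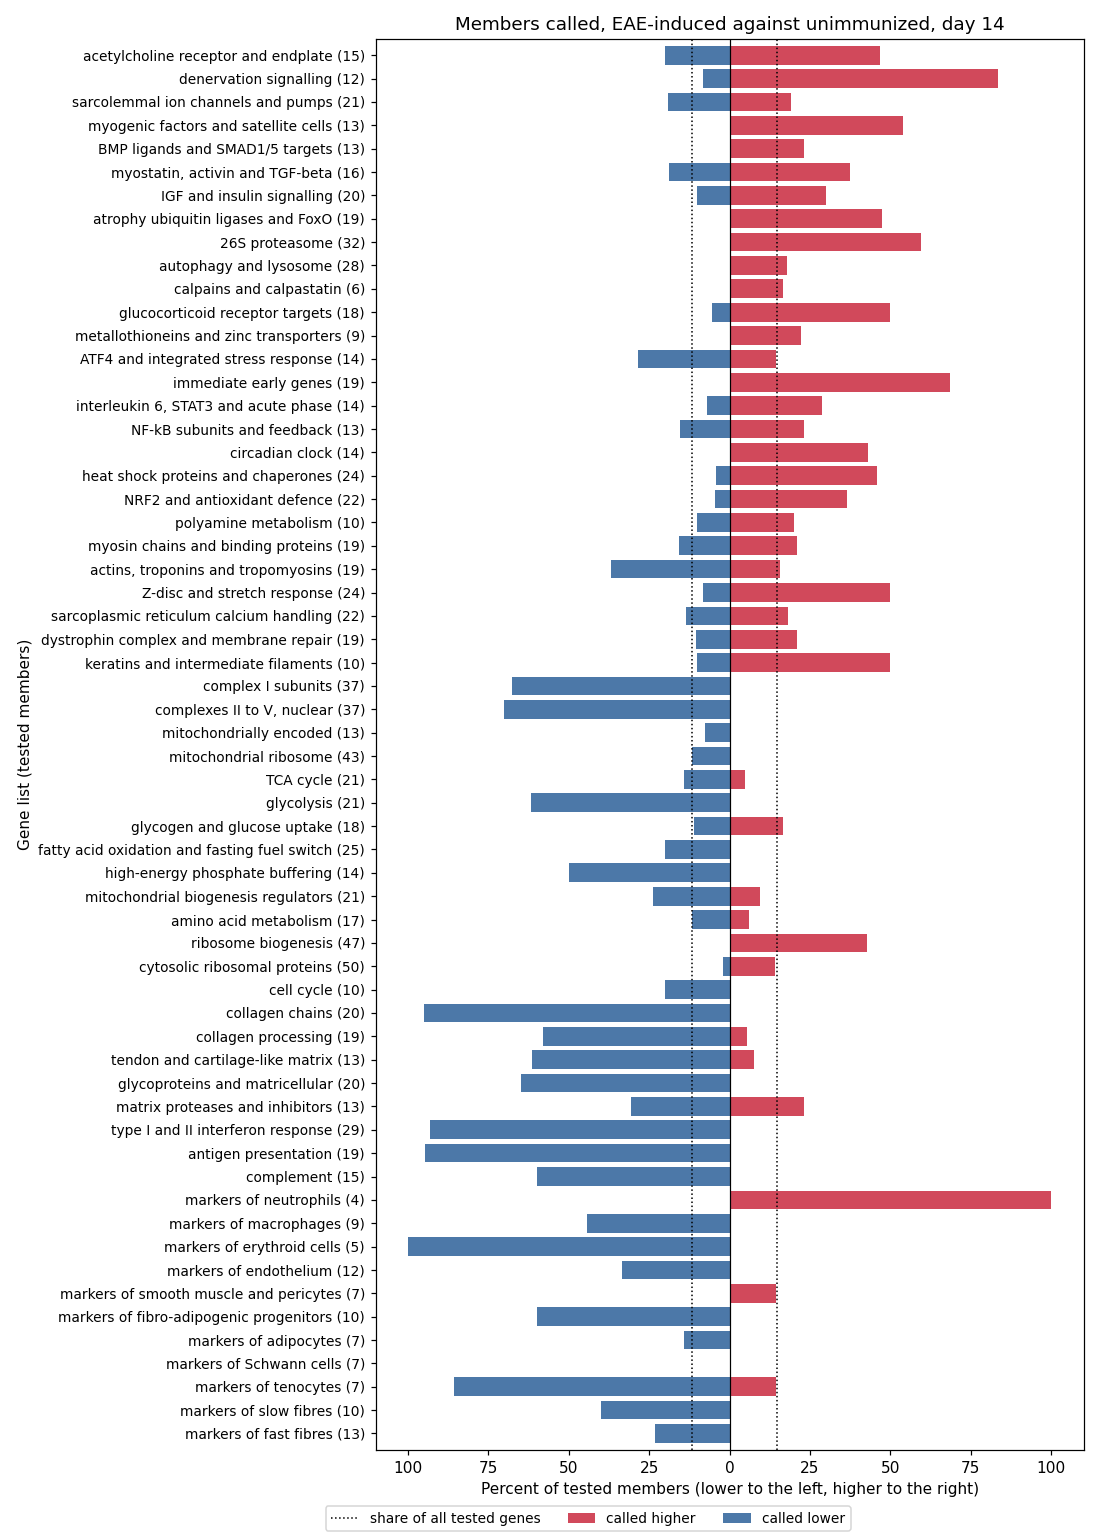
Percent of tested members of each gene list that were called higher (red, to the right) or lower (blue, to the left) in EAE-induced mice, with the number of tested members in brackets. Dotted lines stand at the shares over all tested genes, 14.6% higher and 11.8% lower; collagen chains, interferon response and antigen presentation reach farthest left among lists of over 10 members, and denervation signalling farthest right.

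Ankyrin repeat proteins of the stretch response were higher. Of the Z-disc and stretch list, 12 of 24 were called higher, 2 lower and 10 in neither direction (median log2 fold change 0.60). Ankrd1, a muscle ankyrin repeat protein bound to titin, was at 98.6, 70.2, 108, 77.4 and 78.3 RPKM in unimmunized and at 2911, 2912, 856, 1154 and 2094 RPKM in EAE-induced mice (log2 fold change 4.37, SE 0.33, adjusted p = 4.96e-07). Mice 3 and 4 were lowest among the EAE-induced mice and still far above every unimmunized mouse. Its relative Ankrd2 rose from 125 ± 40.2 to 925 ± 487 RPKM and Ankrd23 from 1645 ± 386 to 2983 ± 289 RPKM. Csrp3, a LIM protein of the Z-disc, rose from 87.7 ± 46.4 to 389 ± 318 RPKM with overlapping groups, Fhl1 from 475 ± 115 to 1534 ± 523 RPKM and Flnc, filamin C, from 76.1 ± 14.7 to 197 ± 54.1 RPKM. Myoz1 and Myoz3, Z-disc calsarcins of fast fibres, fell from 1284 ± 209 to 724 ± 176 RPKM and from 90.8 ± 5.47 to 46.2 ± 17.9 RPKM, the former without a call under quantile normalization, and titin (Ttn) itself was not called (log2 fold change 0.31).

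Myosin genes were called higher in 4 and lower in 3 of 19. Mybph, myosin binding protein H, rose from 23.0 ± 4.36 to 125 ± 50.5 RPKM, and Myl4, the embryonic and atrial light chain, from 28.9 ± 5.75 to 66.3 ± 20.3 RPKM. Myl3, the slow light chain, was at 327, 274, 240.4, 257 and 219.8 RPKM in unimmunized and at 101, 43.0, 135, 70.2 and 91.4 RPKM in EAE-induced mice (log2 fold change -1.67, SE 0.23, adjusted p = 5.30e-05), without overlap. The heavy chains named here were not called: Myh4, the chain of type IIB fibres, was at 5706 ± 1015 RPKM in unimmunized and 5819.7 ± 1578 RPKM in EAE-induced mice, Myh1 had a log2 fold change of 0.30, and the embryonic chain Myh3 of 0.32.

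Thin-filament genes were called lower in 7 and higher in 3 of 19. Actc1, cardiac α-actin, fell from 199, 338, 142, 391 and 179 RPKM in unimmunized to 46.1, 35.6, 33.4, 38.4 and 37.5 RPKM in EAE-induced mice (log2 fold change -2.61, SE 0.26, adjusted p = 3.77e-06). The unimmunized mice spread widely and all of them were above the EAE-induced mice. Tnnc2 fell from 16635 ± 5436 to 8600.1 ± 1936 RPKM, and Tpm1 and Tpm2, tropomyosins, fell from 4273 ± 780.2 to 2425 ± 474 RPKM and from 5180.2 ± 723 to 3188 ± 425 RPKM, both without a call under quantile normalization. Lmod2, leiomodin, which lengthens thin filaments, rose from 79.3 ± 12.8 to 298 ± 95.0 RPKM, and skeletal α-actin (Acta1) was not called (log2 fold change -0.24).

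Parvalbumin and calsequestrin, which bind calcium inside the fibre, were lower. Pvalb, the soluble calcium buffer of fast fibres, was at 22473, 14973, 11176, 15589 and 10462 RPKM in unimmunized and at 6521, 3161, 7002, 5343 and 4820.4 RPKM in EAE-induced mice (log2 fold change -1.47, SE 0.27, adjusted p = 4.31e-04), and the groups did not overlap. Casq1, the calcium store protein of fast fibres, fell from 2335 ± 474 to 1001 ± 264 RPKM. Sln, sarcolipin, an inhibitor of the calcium pump, rose from 4.85 ± 1.72 to 28.2 ± 15.4 RPKM, and the pump Atp2a1 was not called (log2 fold change -0.10). In all, 4 of 22 members were called higher and 3 lower, near the shares of all tested genes (14.6% and 11.8%). Of the surface complex, Dmd, dystrophin, rose from 5.80 ± 1.93 to 16.3 ± 4.99 RPKM and Dysf, dysferlin of membrane repair, from 19.3 ± 3.00 to 48.4 ± 8.61 RPKM, while Anxa2 fell from 120.2 ± 24.6 to 54.8 ± 14.2 RPKM. SJL/J mice are known to carry a dysferlin defect, which both groups share.

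Krt8 and Krt18, paired keratins of simple epithelia, were higher. Krt18 was at 0.518, 0.0644, 0.0969, 0.0639 and 0.235 RPKM in unimmunized and at 21.0, 16.8, 5.10, 4.54 and 9.12 RPKM in EAE-induced mice (log2 fold change 5.22, SE 0.46, adjusted p = 1.20e-06), without overlap and from few reads in unimmunized mice. Its partner Krt8 was at 0.0383 ± 0.0592 RPKM in unimmunized and 4.02 ± 2.74 RPKM in EAE-induced mice. Krt19, also a keratin of simple epithelia, was too low to be tested, at 2.56 ± 0.471 RPKM in unimmunized and 1.4 ± 0.339 RPKM in EAE-induced mice. Krt8, Krt18 and Krt80 passed the limit on level through the EAE-induced mice alone, and the 7 members of the list above 3 RPKM in unimmunized mice held 2 called higher and 1 lower. Without EAE mouse 1 Krt8 fell to 3 RPKM or less in both groups and was not tested. Sync, syncoilin, rose from 12.2 ± 5.92 to 35.3 ± 8.93 RPKM and Des, desmin, from 2013 ± 339.8 to 3308 ± 567 RPKM, both intermediate filament proteins of muscle, whereas Vim, vimentin of connective tissue cells, fell from 157 ± 19.5 to 79.3 ± 23.3 RPKM.

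Nuclear-encoded genes of the respiratory chain and genes of glycolysis were lower. Of 37 tested complex I subunits, 25 were called lower and 0 higher, with fold changes below 0 in each of them (median log2 fold change -0.77, from -1.09 to -0.14). Ndufb10, an accessory subunit, was at 1179.9, 763, 749, 601 and 568 RPKM in unimmunized and at 481, 258, 337, 385 and 325 RPKM in EAE-induced mice (log2 fold change -1.09, SE 0.22, adjusted p = 8.42e-04). Mouse 2 was the lowest, and the groups did not overlap. Of the nuclear subunits of complexes II to V, 26 of 37 were called lower and 0 higher (median -0.79). Cox7a1, the muscle form of a cytochrome oxidase subunit, fell from 977 ± 203 to 313 ± 78.5 RPKM (log2 fold change -1.66, SE 0.24), Sdhb of complex II from 619 ± 73.7 to 305 ± 37.9 RPKM, Uqcrh of complex III from 862 ± 276 to 404 ± 91.0 RPKM and Atp5g3 of the ATP synthase from 1363 ± 268 to 682 ± 123 RPKM.

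Genes of short total exon length were lower as a class, as given above. With the fold changes corrected for exon length, 17 complex I subunits and 20 subunits of complexes II to V were called lower, with median log2 fold changes of -0.48 and -0.62. With median-of-ratios scaling 32 and 30 were called. Among genes encoded in the mitochondrion itself, 1 of 13 was called lower (COX2), 0 higher, and the median of -0.04 ran from -0.25 without unimmunized mouse 4 to 0.20 with the length correction and 0.19 under quantile normalization. The summed level of these genes was 66850.0, 83626, 83977, 41110.2 and 77113 RPKM in the unimmunized mice, of which mouse 4 was the lowest, and 64260.1, 61148, 66261, 63891 and 67245 RPKM in the EAE-induced mice. COX2 fell from 3643 ± 749 to 2349 ± 363 RPKM and was not called without Ctrl mouse 1 (log2 fold change -0.52), EAE mouse 2 (-0.56) or EAE mouse 4 (-0.57). Nor was COX2 called under quantile normalization, with the length correction or without the limit on level. Mitochondrial ribosomal proteins were called lower in 5 of 43, that is near the share of all genes, with a median of -0.09.

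In the TCA cycle, Idh2, the mitochondrial NADP-dependent isocitrate dehydrogenase, was at 209, 198, 222, 215 and 190.5 RPKM in unimmunized and at 50.2, 32.6, 102, 63.0 and 52.0 RPKM in EAE-induced mice (log2 fold change -1.88, SE 0.21, adjusted p = 7.50e-06). Mouse 3 kept the highest level among the EAE-induced mice, and the groups did not overlap. Mdh1 and Mdh2, the malate dehydrogenases, fell from 448 ± 46.5 to 213 ± 34.0 RPKM and from 982 ± 69.5 to 491 ± 55.3 RPKM, and Pcx, pyruvate carboxylase, which refills the cycle, rose from 8.45 ± 1.51 to 19.2 ± 2.27 RPKM. Citrate synthase (Cs) was not called (log2 fold change -0.49), and the list held 3 called lower of 21, 7 with median-of-ratios scaling and 5 without EAE mouse 1. The 3 called lower are near the share of all tested genes, 11.8%.

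Glycolysis was called lower in 13 of 21 tested enzymes and higher in 0, with a median log2 fold change of -0.85. Eno3, muscle enolase, was at 4685, 4541, 4033, 4303 and 3894 RPKM in unimmunized and at 1650.1, 942, 1903, 2076 and 1359 RPKM in EAE-induced mice (log2 fold change -1.49, SE 0.18, adjusted p = 1.39e-05), without overlap. Ldha, lactate dehydrogenase A, fell from 1451 ± 244 to 509 ± 141 RPKM, Pgam2, the muscle phosphoglycerate mutase, from 3687 ± 1090.0 to 1532 ± 298 RPKM, Tpi1 from 1479 ± 130.1 to 569 ± 170.3 RPKM, Pfkm, muscle phosphofructokinase, from 1994 ± 170.1 to 1112 ± 165 RPKM, and Pkm, pyruvate kinase, from 1440.1 ± 113 to 762 ± 60.8 RPKM. Hk2, hexokinase 2, was not called (log2 fold change 0.30), nor was Aldoa, aldolase (-0.30). Gapdh was called lower at a low level (from 62.3 ± 25.4 to 25.4 ± 6.59 RPKM), and reads of this gene may be lost or split because many processed copies of it lie in the genome.

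Phosphate buffering was called lower in 7 of 14 members. Ckmt2, the mitochondrial creatine kinase, was at 1874, 1429, 1549, 1269 and 1118 RPKM in unimmunized and at 381, 208, 387, 425 and 318 RPKM in EAE-induced mice (log2 fold change -2.09, SE 0.19, adjusted p = 1.26e-06), and the groups did not overlap. Ak1, adenylate kinase, fell from 870.1 ± 145 to 386 ± 66.1 RPKM and Gamt, which makes creatine, from 30.8 ± 7.65 to 11.1 ± 4.08 RPKM, while Ckm, the main creatine kinase of the fibre, was not called at 7428 ± 1092 RPKM in unimmunized and 5211 ± 576 RPKM in EAE-induced mice. In glycogen metabolism Gbe1, the branching enzyme, rose from 36.6 ± 8.13 to 109 ± 32.1 RPKM and Phkg1, a phosphorylase kinase subunit, fell from 211 ± 13.3 to 92.4 ± 31.7 RPKM. Slc2a4, the insulin-dependent glucose transporter GLUT4, was not called (log2 fold change -0.45).

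In fatty acid oxidation 5 of 25 were called lower, 3 without Ctrl mouse 3 and 8 without Ctrl mouse 5. Hadh, of β-oxidation, fell from 166 ± 24.9 to 80.3 ± 9.53 RPKM and Lpl, lipoprotein lipase, from 187 ± 29.0 to 93.8 ± 27.8 RPKM, while Cpt1b, which admits fatty acids to the mitochondrion, was not called (log2 fold change 0.18). Among regulators, Perm1, a muscle factor of oxidative capacity, fell from 75.4 ± 9.12 to 25.7 ± 12.5 RPKM (log2 fold change -1.69, SE 0.27), Esrra, the estrogen-related receptor α, from 68.1 ± 8.42 to 37.2 ± 5.65 RPKM and Ppargc1b from 5.95 ± 1.5 to 3.53 ± 0.634 RPKM. Ppargc1a, PGC-1α, was at 4.71, 4.92, 5.05, 6.57 and 5.94 RPKM in unimmunized and at 4.88, 4.46, 5.21, 4.95 and 4.05 RPKM in EAE-induced mice and did not pass the test (log2 fold change -0.20, SE 0.13). The regulator list held 5 called lower of 21, 3 without EAE mouse 2. Slc38a2, an amino acid transporter, rose from 14.2 ± 4.71 to 49.7 ± 19.4 RPKM.

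**Figure D4:**
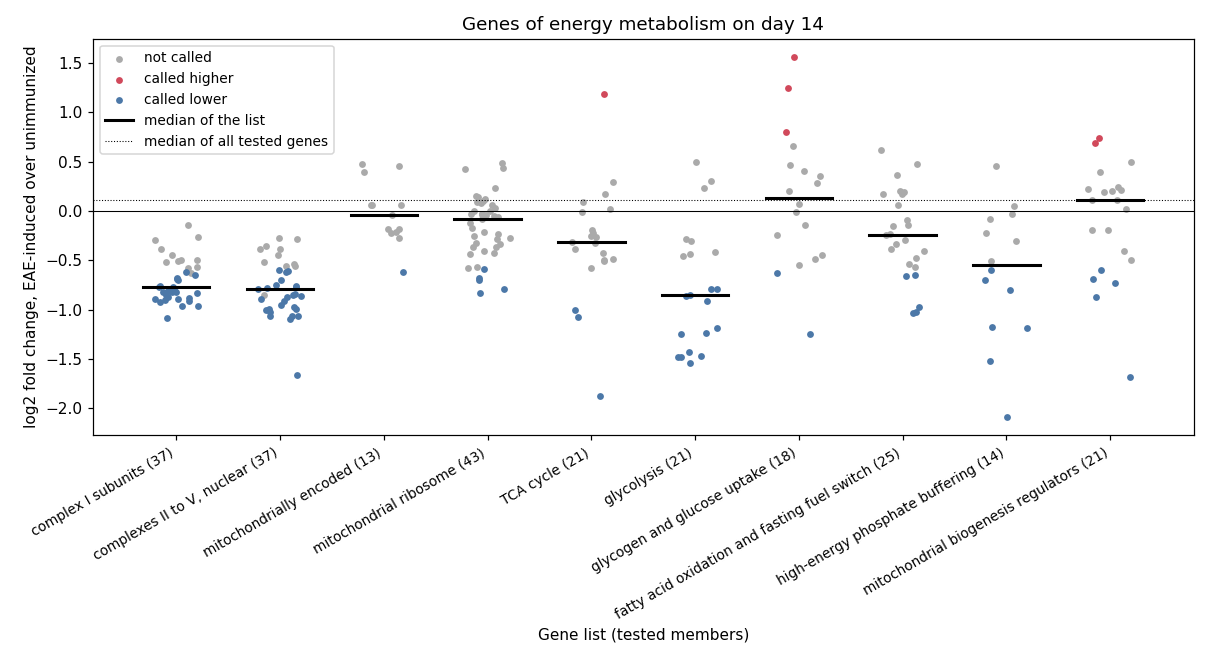
Log2 fold change of each tested member of 10 lists of energy metabolism (vertical axis, EAE-induced over unimmunized mice), with red and blue points for genes called higher and lower and grey points for the rest. Bars mark list medians, which lie between -0.85 for glycolysis and 0.14 for glycogen and glucose uptake, and the dotted line the median of all tested genes, 0.11.

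Of 47 tested genes of ribosome assembly, 20 were called higher, 0 lower and 27 in neither direction. The number called higher was 13 with median-of-ratios scaling and 14 with quantile normalization. Rrp12, a factor of ribosomal subunit export, was at 13.0, 10.4, 12.2, 13.0 and 10.8 RPKM in unimmunized and at 31.8, 46.0, 24.2, 26.0 and 35.8 RPKM in EAE-induced mice (log2 fold change 1.42, SE 0.16, adjusted p = 8.01e-06), without overlap. Ddx21, a nucleolar helicase, rose from 9.95 ± 2.22 to 26.1 ± 6.34 RPKM, Bop1 from 11.9 ± 0.923 to 30.7 ± 6.54 RPKM, Gnl3, nucleostemin, from 14.4 ± 1.54 to 32.7 ± 8.78 RPKM, and Polr1b, a subunit of RNA polymerase I, from 3.60 ± 0.560 to 6.54 ± 1.52 RPKM. Of 50 cytosolic ribosomal proteins, 7 were called higher, which is near the 14.6% of all tested genes. This count moved to 3 without EAE mouse 1, 4 without Ctrl mouse 5, 4 with median-of-ratios scaling and 16 with the length correction. Rpl3l, the ribosomal protein particular to striated muscle, fell from 352, 346, 343, 354 and 314 RPKM in unimmunized to 141, 106, 215, 177 and 149.9 RPKM in EAE-induced mice (log2 fold change -1.15, SE 0.15, adjusted p = 2.22e-05), and the groups did not overlap.

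Matrix genes were lower. Of 20 tested collagen chains (of 28 listed), 19 were called lower and 0 higher, with a median log2 fold change of -1.26. Of these 20 chains, 6 passed the limit on level through the unimmunized mice alone. The 14 above 3 RPKM in EAE-induced mice held 14 called lower. Col1a1, a chain of type I collagen, was at 196, 557, 290.1, 686 and 429 RPKM in unimmunized and at 23.8, 20.6, 45.5, 39.9 and 21.8 RPKM in EAE-induced mice (log2 fold change -3.77, SE 0.33, adjusted p = 1.20e-06). The unimmunized mice spread widely, and the lowest of them, mouse 1, was still above all EAE-induced mice. Col1a2 fell from 444 ± 211 to 44.2 ± 16.2 RPKM and Col3a1, of the finer fibrils, from 133 ± 33.4 to 29.8 ± 7.04 RPKM. Chains of other kinds fell too: Col6a1, of the beaded filaments around fibres, fell from 36.3 ± 13.4 to 14.3 ± 3.80 RPKM with overlapping groups, and Col4a1 of the basement membrane from 58.6 ± 7.77 to 27.6 ± 4.66 RPKM (log2 fold change -1.09, SE 0.18).

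Collagen processing was called lower in 11 of 19. Of the 19 members, 2 passed the limit on level through the unimmunized mice alone, Loxl2 among them. The 17 above 3 RPKM in EAE-induced mice held 9 called lower. Loxl2, a crosslinking oxidase, fell from 8.81 ± 1.20 to 1.80 ± 0.474 RPKM (log2 fold change -2.26, SE 0.17), Bmp1, the protease that trims procollagen, from 11.7 ± 1.75 to 4.02 ± 1.07 RPKM, its enhancer Pcolce from 113 ± 24.3 to 39.1 ± 8.88 RPKM, and Serpinh1, the collagen chaperone HSP47, from 60.6 ± 13.7 to 27.7 ± 5.73 RPKM. Lox, the founding oxidase, was at 8.88 ± 3.85 RPKM in unimmunized and 7.70 ± 2.30 RPKM in EAE-induced mice and was not called. Of the glycoproteins, 13 of 20 were called lower: Sparc, which binds collagen, was at 147, 297, 246, 379.8 and 269 RPKM in unimmunized and at 44.8, 50.3, 62.1, 58.9 and 50.3 RPKM in EAE-induced mice (log2 fold change -2.27, SE 0.20, adjusted p = 1.37e-06), without overlap. Mfap4, of elastic fibres, fell from 25.8 ± 6.79 to 3.62 ± 1.20 RPKM, Fn1, fibronectin, from 41.3 ± 14.6 to 16.3 ± 7.73 RPKM, and Eln, elastin, from 22.3 ± 2.63 to 9.55 ± 1.67 RPKM. Among proteases, Mmp2 fell from 55.7 ± 2.50 to 26.3 ± 4.31 RPKM and Adamts8 rose from 2.90 ± 0.564 to 7.39 ± 3.45 RPKM.

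Most tendon genes were lower, and Scx, a transcription factor of their lineage, was higher. Of 13 tested members, 8 were called lower and 1 higher. Mkx, also of this list, was too low to be tested, at 2.11 ± 0.442 RPKM in unimmunized and 1.06 ± 0.319 RPKM in EAE-induced mice. Tnmd, tenomodulin, a membrane protein of tendon cells, was at 35.9, 63.1, 33.9, 56.1 and 46.3 RPKM in unimmunized and at 6.91, 3.78, 12.2, 6.30 and 5.04 RPKM in EAE-induced mice (log2 fold change -2.83, SE 0.27, adjusted p = 1.92e-06). Scx, scleraxis, a transcription factor that marks the tendon lineage, was at 20.2, 15.1, 11.6, 15.9 and 11.9 RPKM in unimmunized and at 166, 83.9, 37.3, 35.8 and 56.3 RPKM in EAE-induced mice (log2 fold change 2.12, SE 0.34, adjusted p = 1.53e-04). The groups did not overlap in either gene, in opposite directions. Cilp2, a cartilage-type matrix protein, fell from 42.8 ± 6.68 to 4.88 ± 1.15 RPKM, Chad, chondroadherin, from 80.1 ± 9.21 to 24.1 ± 7.99 RPKM, Fmod, fibromodulin, from 273 ± 43.8 to 95.8 ± 24.4 RPKM, and Comp from 83.3 ± 12.1 to 35.5 ± 11.7 RPKM.

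**Figure D5:**
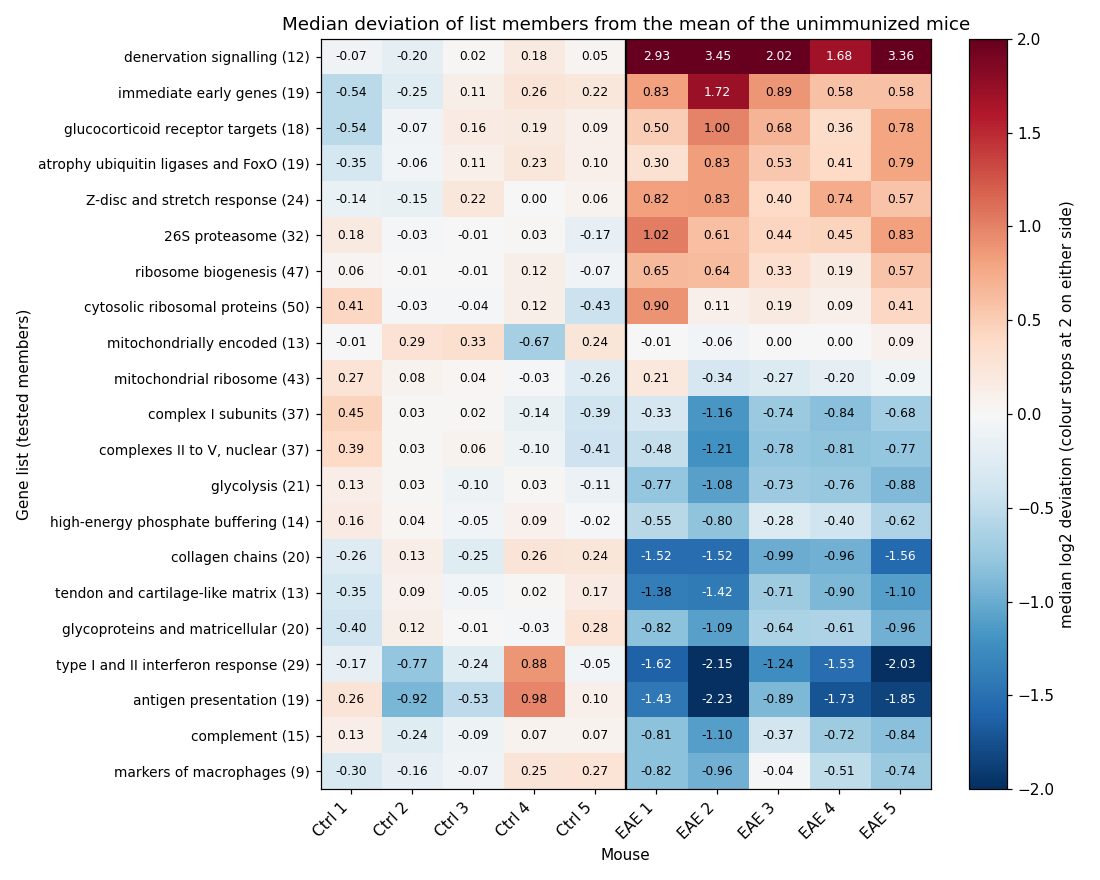
Median log2 deviation of the tested members of 21 gene lists from the mean of the unimmunized mice (red above, blue below), for each of the 5 unimmunized (Ctrl) and 5 EAE-induced mice. Ctrl 4 reaches 0.88 in the interferon and 0.98 in the antigen presentation list and -0.67 in the mitochondrially encoded list, and EAE 2 and EAE 5 are lowest in the interferon list at -2.15 and -2.03.

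Interferon response genes were lower in EAE-induced mice. Of 29 tested members (of 44 listed), 27 were called lower and 0 higher, with a median log2 fold change of -1.80. Of these 17 passed the limit on level through the unimmunized mice alone, and of the 12 above 3 RPKM in EAE-induced mice 10 were called lower. The summed level of all listed members was 481, 230.2, 301, 1188 and 342 RPKM in the unimmunized mice and 139, 98.6, 149, 119 and 103 RPKM in the EAE-induced mice. Unimmunized mouse 4 had by far the highest sum, and every other unimmunized mouse was still above all EAE-induced mice. Without mouse 4, 22 members were called lower and the median log2 fold change was -1.53.

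Igtp, an immunity-related GTPase that interferon γ induces, was at 18.9, 13.7, 15.4, 301 and 39.6 RPKM in unimmunized and at 5.49, 4.33, 7.26, 6.38 and 3.28 RPKM in EAE-induced mice (log2 fold change -2.71, SE 0.63, adjusted p = 0.00266), and the groups did not overlap. Iigp1, of the same family, was at 6.57, 2.68, 6.92, 195 and 22.1 RPKM in unimmunized and at 1.98, 1.52, 2.49, 2.73 and 1.77 RPKM in EAE-induced mice (log2 fold change -2.71, SE 0.82, adjusted p = 0.0133), and these ranges overlapped. Isg15, a ubiquitin-like protein induced by type I interferon, was at 26.8, 6.55, 11.5, 6.44 and 3.77 RPKM in unimmunized and at 2.88, 0.860, 1.54, 1.26 and 1.20 RPKM in EAE-induced mice (log2 fold change -2.53, SE 0.43, adjusted p = 2.97e-04), without overlap. Ifit3, an antiviral RNA-binding protein, fell from 11.2 ± 6.57 to 1.35 ± 0.397 RPKM and Bst2, tetherin, from 57.7 ± 42.4 to 11.3 ± 3.34 RPKM. The transcription factors of the response fell too: Irf7 from 12.3 ± 10.9 to 1.44 ± 0.343 RPKM, Irf1 from 13.3 ± 8.50 to 4.39 ± 1.26 RPKM and Irf9 from 9.39 ± 3.27 to 3.28 ± 0.890 RPKM. Ifit3 and Ifit3b are near-identical copies, so reads may be split between them. Trim25, also a member, was not called (log2 fold change -0.06).

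The upstream windows of Igtp and Isg15 are shown because they hold the core of the interferon-stimulated response element, which is GAAA, any 2 bases and GAAA again, in capitals here, searched on both strands. They are 250 bases before the start, 5′ to 3′ on the gene's strand, from RefSeq on GRCm38.p6.
Igtp (chr11:58199306-58199555, plus strand): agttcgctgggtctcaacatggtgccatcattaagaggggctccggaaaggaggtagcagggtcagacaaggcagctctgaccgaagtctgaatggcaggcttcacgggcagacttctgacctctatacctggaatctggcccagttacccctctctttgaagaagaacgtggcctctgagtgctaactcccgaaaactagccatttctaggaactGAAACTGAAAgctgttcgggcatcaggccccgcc
Isg15 (chr4:156200819-156201068, minus strand): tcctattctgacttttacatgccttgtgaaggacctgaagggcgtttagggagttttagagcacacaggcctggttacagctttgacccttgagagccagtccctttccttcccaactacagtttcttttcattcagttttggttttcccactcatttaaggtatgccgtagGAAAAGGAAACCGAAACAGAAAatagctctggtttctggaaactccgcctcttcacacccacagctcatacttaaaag
In Igtp the motif began 34 bases before the start, and in Isg15 there were 3 overlapping matches from 78 to 66 bases before it. The motif stood in 2.98% of all 32851 windows. By gene, it was held by 14 of 22 members of the list with a window (63.6%). Of all genes with a window 3.46% held it, and of tested genes with a window 2.96%. Among genes called lower the share was 5.05%, and among genes called higher it was 2.4%. Of 16 antigen presentation genes with a window, 2 held it.

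Antigen presentation genes fell with the interferon genes, in 18 of 19 tested members (median log2 fold change -1.65), and in 17 without unimmunized mouse 4. Of the 19 members, 2 passed the limit on level through the unimmunized mice alone, Tap1 among them. The 17 above 3 RPKM in EAE-induced mice held 16 called lower. Tap1, the transporter that loads peptides into the endoplasmic reticulum, was at 8.08, 3.42, 4.99, 31.9 and 11.5 RPKM in unimmunized and at 2.22, 1.49, 2.92, 2.54 and 1.73 RPKM in EAE-induced mice (log2 fold change -2.00, SE 0.44, adjusted p = 0.00194), without overlap. In the class II genes named here the groups overlapped: H2-Ab1 was at 159.8, 61.4, 84.8, 212 and 119 RPKM in unimmunized and 27.1, 20.2, 67.6, 26.0 and 19.9 RPKM in EAE-induced mice, and Cd74, the invariant chain, fell from 374 ± 183 to 94.2 ± 58.8 RPKM. B2m, the light chain of class I molecules, fell from 411 ± 234 to 146 ± 32.2 RPKM, also with overlapping groups. Of the complement list 9 of 15 were called lower, with C1qa from 80.3 ± 24.2 to 39.0 ± 10.4 RPKM, and C3, the central component, was not called (log2 fold change -0.37).

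Markers of other cell types moved beside these groups, and their part in them was not tested. Of 9 tested macrophage markers 4 were called lower, and the sum over the listed markers was 226, 235, 242, 353 and 257 RPKM in unimmunized and 168, 114, 256, 154 and 153 RPKM in EAE-induced mice. Folr2, of resident macrophages, fell from 14.0 ± 2.56 to 4.73 ± 1.95 RPKM, and Cd68 and Cd163 were not called (log2 fold changes -0.21 and -0.42). Of fibro-adipogenic progenitor markers 6 of 10 were called lower, led by Pi16 (from 73.1 ± 15.2 to 15.4 ± 5.13 RPKM), while Pdgfra, their defining receptor, was not called at 7.64 ± 1.62 RPKM in unimmunized and 6.74 ± 1.02 RPKM in EAE-induced mice. Their sums ranged from 1306 to 1711 RPKM in unimmunized and from 676 to 964 RPKM in EAE-induced mice. Tenocyte markers were lower in 6 of 7, with sums from 609 to 847 RPKM against 305 to 486 RPKM, and endothelial markers in 4 of 12, with sums from 186 to 249.7 RPKM against 157 to 214 RPKM.

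Red cell transcripts were lower as well. All 5 of the 5 tested erythroid markers were called lower, and Hba-a1, a haemoglobin α chain, was at 195, 159, 336, 354 and 95.2 RPKM in unimmunized and at 87.7, 16.8, 67.0, 56.9 and 12.4 RPKM in EAE-induced mice (log2 fold change -2.46, SE 0.56, adjusted p = 0.00239). The near-identical haemoglobin genes share reads, so single chains are uncertain. Schwann cell markers were called in 0 of 7, with sums from 125 to 134 RPKM in unimmunized and from 89.9 to 133 RPKM in EAE-induced mice. Of adipocyte markers 1 of 7 was called lower (Cfd), and Adipoq, adiponectin, was not (log2 fold change -0.20). Slow-fibre markers were called lower in 4 of 10 and fast-fibre markers in 3 of 13, while Myh7, the slow heavy chain, was not called (log2 fold change -0.19).

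Neutrophil genes were higher. S100a8, a subunit of calprotectin, was at 1.85, 1.03, 0.807, 1.82 and 0.979 RPKM in unimmunized and at 335, 334, 130.1, 168 and 156 RPKM in EAE-induced mice (log2 fold change 7.28, SE 0.36, adjusted p = 5.20e-09), the largest change of all tested genes. Its partner S100a9 rose from 2.70 ± 0.920 to 36.1 ± 16.4 RPKM. Ngp, a granule protein, was at 0.111 ± 0.106 RPKM in unimmunized and 3.80 ± 2.45 RPKM in EAE-induced mice, and without EAE mouse 3 it fell to 3 RPKM or less and was not tested. Of 14 listed neutrophil markers 4 passed the limit on level, each through its level in EAE-induced mice, so that their 4 calls are given as a description. All 4 were also called between OVA-immunized and unimmunized mice, with a median log2 difference of 4.77. Between EAE-induced and OVA-immunized mice 1 was called higher and 0 lower, with a median of -0.91. No lymphocyte marker passed the limit on level (of 12). The sum of the lymphocyte markers was 10.6, 4.82, 5.33, 7.42 and 4.87 RPKM in unimmunized and 3.84, 2.64, 5.22, 3.60 and 3.42 RPKM in EAE-induced mice. Trdc, the constant region of the T cell receptor δ chain, was at 0.116, 0.0408, 0.123, 0.121 and 0.0497 RPKM in unimmunized and at 5.86, 7.47, 2.22, 3.18 and 3.66 RPKM in EAE-induced mice (log2 fold change 4.49, SE 0.39, adjusted p = 1.16e-06). Trdj1, a joining segment of the same locus on chromosome 14, is listed at 0 in all 5 unimmunized mice and stood at 3.20, 4.91, 0.616, 3.72 and 4.46 RPKM in EAE-induced mice. Ighm, the heavy chain of immunoglobulin M, was at 29.2, 35.7, 15.6, 24.2 and 24.9 RPKM in unimmunized and at 1.90, 1.81, 8.03, 3.50 and 3.69 RPKM in EAE-induced mice, without overlap.

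Of the 2318 called genes, 479 were in a list and 1839 in none. Outside the lists, Atp13a3, a polyamine transporter of endosomes, was at 1.55, 3.65, 3.65, 4.11 and 3.97 RPKM in unimmunized and at 44.6, 52.1, 16.7, 22.8 and 30.6 RPKM in EAE-induced mice (log2 fold change 3.22, SE 0.29, adjusted p = 1.37e-06). The groups did not overlap in this gene or in the 7 higher genes that follow. Tmem100 rose from 9.23 ± 2.48 to 82.1 ± 45.1 RPKM, Ttc9 from 1.51 ± 0.303 to 20.2 ± 9.28 RPKM, Otud1, a deubiquitinase, from 10.2 ± 3.82 to 74.2 ± 32.1 RPKM, Mknk2, a kinase of the translation factor eIF4E, from 76.5 ± 10.9 to 508 ± 191 RPKM, Sik1, a salt-inducible kinase, from 7.96 ± 3.93 to 42.3 ± 22.6 RPKM, and Rb1, the retinoblastoma protein, from 5.23 ± 1.41 to 23.4 ± 5.56 RPKM. Car3, carbonic anhydrase 3, rose from 233 ± 95.1 to 957 ± 268 RPKM. Among lower genes, Dhrs7c, a dehydrogenase of the sarcoplasmic reticulum, was at 329, 293, 234, 251 and 202 RPKM in unimmunized and at 60.2, 17.9, 91.2, 79.4 and 29.4 RPKM in EAE-induced mice (log2 fold change -2.45, SE 0.35, adjusted p = 6.63e-05). Retnla, a resistin-like protein of alternatively activated macrophages and fat, fell from 205 ± 105 to 36.5 ± 18.5 RPKM, Serpinf1, the secreted factor PEDF, from 235 ± 20.4 to 59.9 ± 15.0 RPKM, Nrep from 51.6 ± 14.8 to 9.57 ± 5.30 RPKM, Ecrg4 from 26.5 ± 7.55 to 3.31 ± 0.966 RPKM and Thy1, a surface protein of fibroblasts, from 27.4 ± 3.74 to 7.29 ± 2.24 RPKM. Ostn, osteocrin, a hormone that muscle secretes, fell from 5.70 ± 1.45 to 0.885 ± 0.349 RPKM. At low levels Ces2c, a carboxylesterase, rose from 0.241 ± 0.130 to 8.89 ± 3.36 RPKM and Tekt1, a tektin of cilia, from 0.527 ± 0.221 to 8.44 ± 3.10 RPKM, while Cpz, carboxypeptidase Z, fell from 4.59 ± 1.73 to 0.268 ± 0.120 RPKM.

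By absolute level, the largest losses were in Tnnc2 and Pvalb, and the largest gain was in Ankrd1. Slc25a4, the ADP/ATP carrier of the mitochondrial membrane, fell from 4071 ± 483 to 2246 ± 402 RPKM, and Ybx3, a cold shock domain protein that binds RNA, rose from 531 ± 43.7 to 1422 ± 245 RPKM.

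OVA-immunized mice received the same adjuvant with another protein, and between them and the unimmunized mice 12 of 8471 genes were called (0.142%). This comparison shares the unimmunized mice with the one above, so values are set side by side. Chrna1 was at 6.77 ± 0.465 RPKM in OVA-immunized mice, Myog at 11.5 ± 4.49 RPKM and Ankrd1 at 95.9 ± 49.3 RPKM, near the unimmunized levels of 6.70 ± 0.484, 10.1 ± 1.33 and 86.6 ± 16.1 RPKM. Idh2 was at 185 ± 23.1 RPKM beside 207 ± 12.9 RPKM in unimmunized mice. S100a8 was at 46.5 ± 24.4 RPKM and S100a9 at 71.9 ± 36.0 RPKM in OVA-immunized mice, beside 225 ± 101 and 36.1 ± 16.4 RPKM in EAE-induced mice. The median log2 difference between OVA-immunized and unimmunized mice was -0.69 over the interferon list, -0.57 over antigen presentation, -0.36 over collagen chains, 0.08 over denervation signalling and -0.03 over complex I. Set against the OVA-immunized mice in the same model, 11% of 8674 genes were called higher and 9.28% lower in EAE-induced mice. By that measure, in which only members above 3 RPKM in either of these groups were tested, 8 of 19 interferon genes, 12 of 19 antigen presentation genes, 16 of 18 collagen chains, 25 of 37 complex I subunits and 12 of 21 glycolytic enzymes were called lower. Called higher were 10 of 12 denervation signalling genes and 26 of 32 proteasome subunits.

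On day 40, which the study places in remission, 0 of the 8771 genes were called between EAE-induced and unimmunized mice by limma, and 1046 had an unadjusted p below 0.05. The difference between the EAE effects of day 14 and of day 40, tested as an interaction over the mice of both days, was called in 2912 genes (33.2%), among them 1174 of the 1282 genes called higher and 827 of the 1036 called lower on day 14. Chrna1 was at 6.13 ± 1.11 RPKM in unimmunized and 5.74 ± 0.441 RPKM in EAE-induced mice on day 40, and its effect differed between the days by 3.01 on the log2 scale (SE 0.25, adjusted p = 4.83e-09). Myog was at 10.6 ± 3.29 and 12.2 ± 4.49 RPKM, a difference of 3.93 between the days (SE 0.46). Ankrd1 was at 96.1 ± 44.2 and 110.4 ± 47.0 RPKM (4.17, SE 0.50). Col1a1 was at 172 ± 56.5 and 189 ± 77.3 RPKM (-3.87, SE 0.46). Over the lists, the median log2 difference between EAE-induced and unimmunized mice on day 40 was 0.05 for denervation signalling, 0.26 for complex I, 0.15 for glycolysis, -0.19 for collagen chains and -0.22 for the interferon response.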

How the data were processed

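Poly(A) RNA of EDL muscle was sequenced as paired-end, directional libraries. According to the submitters' processing notes and the study's methods, reads were aligned with Subread to mm10 and counted with featureCounts, and the strand setting of the counting is not given in the sources used here. The deposited values are log2(RPKM + 1), made by the authors, with 0.0001 in place of no read. Read on this scale, 99.4% of 2362 low values of 405 genes were whole reads within 0.02, against 15.7% read as RPKM. The design had assumed a linear RPKM, so the deposited log2 values were first turned back into RPKM. The table has 0 columns of no sample. Symbols were matched by gene ID to RefSeq for 20857 genes (99.0%), and promoter windows were from RefSeq, GRCm38.p6.

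Fold changes were fitted with limma 3.58.1 in R 4.3.3 (empirical Bayes, prior variance following the mean level) after adding 0.1 to each RPKM and taking log2, over the 15 mice of day 14 in 1 model, and p-values were adjusted by Benjamini-Hochberg over all 8771 genes with a mean above 3 RPKM in either group. Calls required both an adjusted p under 0.05 and more than a 1.5-fold change. The mice are separate animals, and the p-values cover the spread among them. Python 3.11.15 with pandas 2.3.3, numpy 2.4.6 and matplotlib 3.10.9 was used for summaries and plots. The fit was tested on simulated data. Depth was estimated from the size of 1 read at 18200000 to 31600000 reads per mouse. Counts as such were not analysed here.

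Named genes were the members of the gene lists, the called genes with the largest fold changes or differences in RPKM, the most abundant genes, and called genes in no list with a mean over 20 RPKM. Within lists the text leads with called members of large fold change, and uncalled members were picked for their known role. A few list members are counted but not reported here by name. The comparison, the lists and the named genes were chosen with earlier results of these data known. Alternatives were other pseudocounts, filters, scalings and sets of mice, a replicate block, an exon length correction and leaving out each mouse. The OVA-immunized mice as comparison group were added after seeing the data.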

Additional observations from a re-analysis of the deposited data

Results flagged for a closer look

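Single mice far from the other 4 of their group were found in 31 of 564 groups of 5 examined (5.5%), where chance picks out about 1 in 20 groups. Beside each gene stands the gap to the nearest mouse as a share of the group's whole range, for which the limit is 0.71. Unimmunized mouse 1 accounted for 22 of the 31. It was the lowest of its group in Acvr2a (0.81), Ankrd23 (0.791), Atp13a3 (0.876), Bmpr1a (0.792), Car3 (0.744), Chrnd (0.79), Col3a1 (0.712), Gbe1 (0.719), Lox (0.929), Mef2a (0.73), Mstn (0.834), Mybph (0.726), Myc (0.723), Nfe2l2 (0.713), Psmc6 (0.914), Rb1 (0.849) and Rora (0.732). It was the highest in Cd68 (0.768), Krt8 (0.746), Nfkbia (0.715), Ppargc1b (0.713) and Tpm2 (0.773). EAE mouse 3 accounted for 6, as the lowest in Cpne2 (0.715), Fhl1 (0.731), Glul (0.814) and Trdj1 (0.786) and the highest in Cd74 (0.743) and H2-Ab1 (0.749). The remaining 3 were unimmunized mouse 5, lowest in Rpl3l (0.732), EAE mouse 1, highest in Id3 (0.868), and EAE mouse 2, lowest in Socs3 (0.735). What sets these mice apart was not tested.

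The EAE effect differed between day 14 and day 40, by a test of the difference itself (an interaction in limma over the mice of both days), in 2912 of 8771 genes. On the log2 scale the effect of day 14 minus that of day 40 was 4.17 in Ankrd1, 3.93 in Myog, 3.01 in Chrna1 and -3.87 in Col1a1. In each of these genes the day-14 groups did not overlap.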

How the results depend on the processing

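Counts of called genes kept within 1.5 times under other pseudocounts, scalings, sets of mice and the length correction. Without the limit on level 1610 genes were called higher and 1968 lower, and without the fold-change limit 2530 and 1665, where the settings themselves admit more genes. No gene was called in the opposite direction under any of these alternatives. Leaving out 1 mouse gave 999 to 1434 higher and 866 to 1127 lower genes, 423 to 492 called list members (479 with all mice) and 2492 to 3166 interaction genes. The named genes called numbered 230, and 224 to 230 with 1 mouse left out. These genes were largely chosen for large changes in the same data, so their stability does not speak for the other calls. Over all tested genes, 836 of the 1282 higher and 776 of the 1036 lower calls held with every mouse left out in turn. With the OVA-immunized mice as comparison group 957 genes were higher and 805 lower, with 423 list members and 201 of the named genes called. Between OVA-immunized and unimmunized mice the count moved from 12 to 21 under quantile normalization and to 5 to 11 with 1 mouse left out, the cause of which was not tested.

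Replicate numbers did not pair the mice: the correlation of deviations between same-numbered mice ran from -0.227 to 0.512, and 1 of 5 correlated best with its own number. With the replicate number as a block 1335 genes were called higher, 1048 lower, 488 list members, 230 named genes, 10 between OVA-immunized and unimmunized mice and 2963 for the interaction. Low genes rest on few reads, so genes at 3 RPKM or less in both groups were not tested in the main fit. Levels printed for some of them are a description, and only the alternatives with a lower limit on level or none tested such genes.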
